A study of Mus musculus with 21 samples.

Results

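Dot1l encodes the histone methyltransferase that places methyl groups on lysine 79 of histone H3, a mark of actively transcribed genes. Its product works in complexes with AF10 (Mllt10), AF17 (Mllt6), AF9 (Mllt3) and ENL (Mllt1), and several of these proteins are fusion partners of MLL1 (Kmt2a) in leukaemia. The genes described here are those 5, Kmt2a itself, the elongation scaffolds Aff1 and Aff4, and the MLL1 tethers Men1 (menin) and Psip1 (LEDGF). They are listed by name, with earlier results of these data known, and are 10 of the 18193 genes measured by a probe set of their own. The array carried 28 probe sets annotated to one of them alone, of 45101 probe sets in all. Mllt10 had 4 such probe sets, Dot1l, Mllt1 and Kmt2a had 2 each, and the other 6 genes had 3 each. Each gene is represented by its brightest probe set over all arrays, and the others are given beside it.

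RNA from sorted mouse bone marrow cells was hybridised to 21 Affymetrix expression arrays. All animals had a C57/BL6 background and carried Mx-Cre, a recombinase transgene driven by an interferon-responsive promoter, which the RNA analogue PIPC switches on. The groups were Dot1l-deleted granulocyte macrophage progenitors (GMP, 4 arrays), control GMP (5 arrays), Dot1l-deleted LSK cells (6 arrays) and control LSK cells (6 arrays). Deleted cells came from PIPC-injected animals of genotype Dot1l fl/fl x Mx-Cre, and control cells from animals labelled Dot1 wt/wt x Mx-Cre. LSK cells lack lineage markers, carry Sca-1 and Kit, and include the blood stem cells and the earliest progenitors. The design text ties the injection to both genotypes, so the controls share the Cre and, as far as it says, the PIPC. Neither age nor whether each array stands for 1 animal is stated in the labels, so the p-values reflect only how these arrays vary, which may in part be technical.

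The normal role of these proteins sets the order below. DOT1L and its direct partners lengthen transcription of active genes, with the YEATS domains of AF9 and ENL reading acetylated or crotonylated histones. MLL1 methylates lysine 4 of histone H3 and is held on chromatin by menin and LEDGF, while AFF1 and AFF4 build the super elongation complex that also takes in AF9 or ENL. In blood, MLL1 and AF9 are known for their part in stem cell maintenance.

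Values are log2 intensities, in which a difference of 1 is a doubling, and the middle probe set of an array lay between 4.65 and 4.98. Of 8 sort markers, 7 were measured, and among them only Slamf1 overlapped between control GMP (3.51 to 4.45) and control LSK (3.35 to 4.43). Elane, the gene of neutrophil elastase, lay between 12.41 and 13.49 in deleted GMP and between 13.12 and 13.70 in control GMP. It lay between 7.42 and 11.44 in deleted LSK and between 8.63 and 10.68 in control LSK. Kit lay between 5.66 and 7.27 in control GMP and between 8.57 and 9.93 in control LSK. The median of Flt3 was 7.55 in deleted LSK and 10.24 in control LSK. One array stood apart from its group. On the array labelled LSK-Dot K1272, Kit stood at 5.0, against 7.58 to 9.96 on the other deleted LSK arrays, and Cd34 at 5.20, against 9.52 to 10.38. Its mean over the 3 measured erythroid markers was 8.47, against 5.02 to 6.07, and its mean rank correlation with its own group was 0.684. Its T cell mean was 4.92, against 3.30 to 3.53, and its stroma and endothelium mean 5.63, against 4.32 to 4.64. Its macrophage and late neutrophil means also lay above those of the other deleted LSK arrays, and its B cell mean among them. Its median, 4.98, was the highest of all arrays. Its log2 difference of the 3′ and 5′ control probe sets, a sign of RNA quality, was the lowest of all arrays for Actb (-0.88) and for Gapdh (2.06). Its 5′ probe sets were thus not fainter relative to the 3′ ones than on other arrays. This array lay below every other deleted LSK array for 6 of the 10 genes (Mllt10, Mllt3, Kmt2a, Aff1, Aff4 and Psip1). It lay above them for Dot1l and Men1. The counts of called genes among the 10, and many differences that rest on it, are therefore given with and without it. In sorted bulk samples, fewer cells of a type and less RNA per cell cannot be told apart.

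The deletion of Dot1l passed the test for none of the 10 genes, in either cell type, while 2 of them differed between the cell types in the controls. In deleted against control GMP, limma called 0 of the 10 genes at an adjusted p under 0.05, against 0.143% of all genes, and 2 of the 10, Dot1l and Mllt1, had an unadjusted p under 0.05, against 13.9% of all genes. In deleted against control LSK it called 0 of the 10, against 0% of all genes, and 0 of the 10 had an unadjusted p under 0.05, against 5.61% of all genes. The difference of the genotype effects between GMP and LSK was called for 0 of the 10, against 0.033% of all genes, with 1, Mllt1, at an unadjusted p under 0.05, against 13.6% of all genes. In control GMP against control LSK, Mllt3 was lower and Mllt1 higher, which is 2 of the 10 genes against 12% of all genes. By direction that is 1 of 10 higher against 7.04% of all genes, and 1 of 10 lower against 4.95%. With the replicate numbers that the cell types share fitted as a block, 0 of the 10 were called there, against 2.5% of all genes. In deleted GMP against deleted LSK, 0 of the 10 were called, against 0.143% of all genes, and 0 had an unadjusted p under 0.05, against 7.28% of all genes.

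Without the array labelled LSK-Dot K1272 the counts stayed at 0 of 10 in GMP (against 2.14% of all genes), in LSK (against 0%), for the difference of effects (against 0.0824%) and for deleted GMP against deleted LSK (against 0.605%). Between control GMP and control LSK the count became 4 of 10, Aff1 and Psip1 joining Mllt3 and Mllt1, against 30.4% of all genes. That array is in neither control group, and enters this comparison only through the estimate of the spread. All genes together were shifted by a median of 0.29 log2 in control GMP against control LSK, by -0.20 in deleted against control GMP and by 0.06 in deleted against control LSK.

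**Figure D1:**
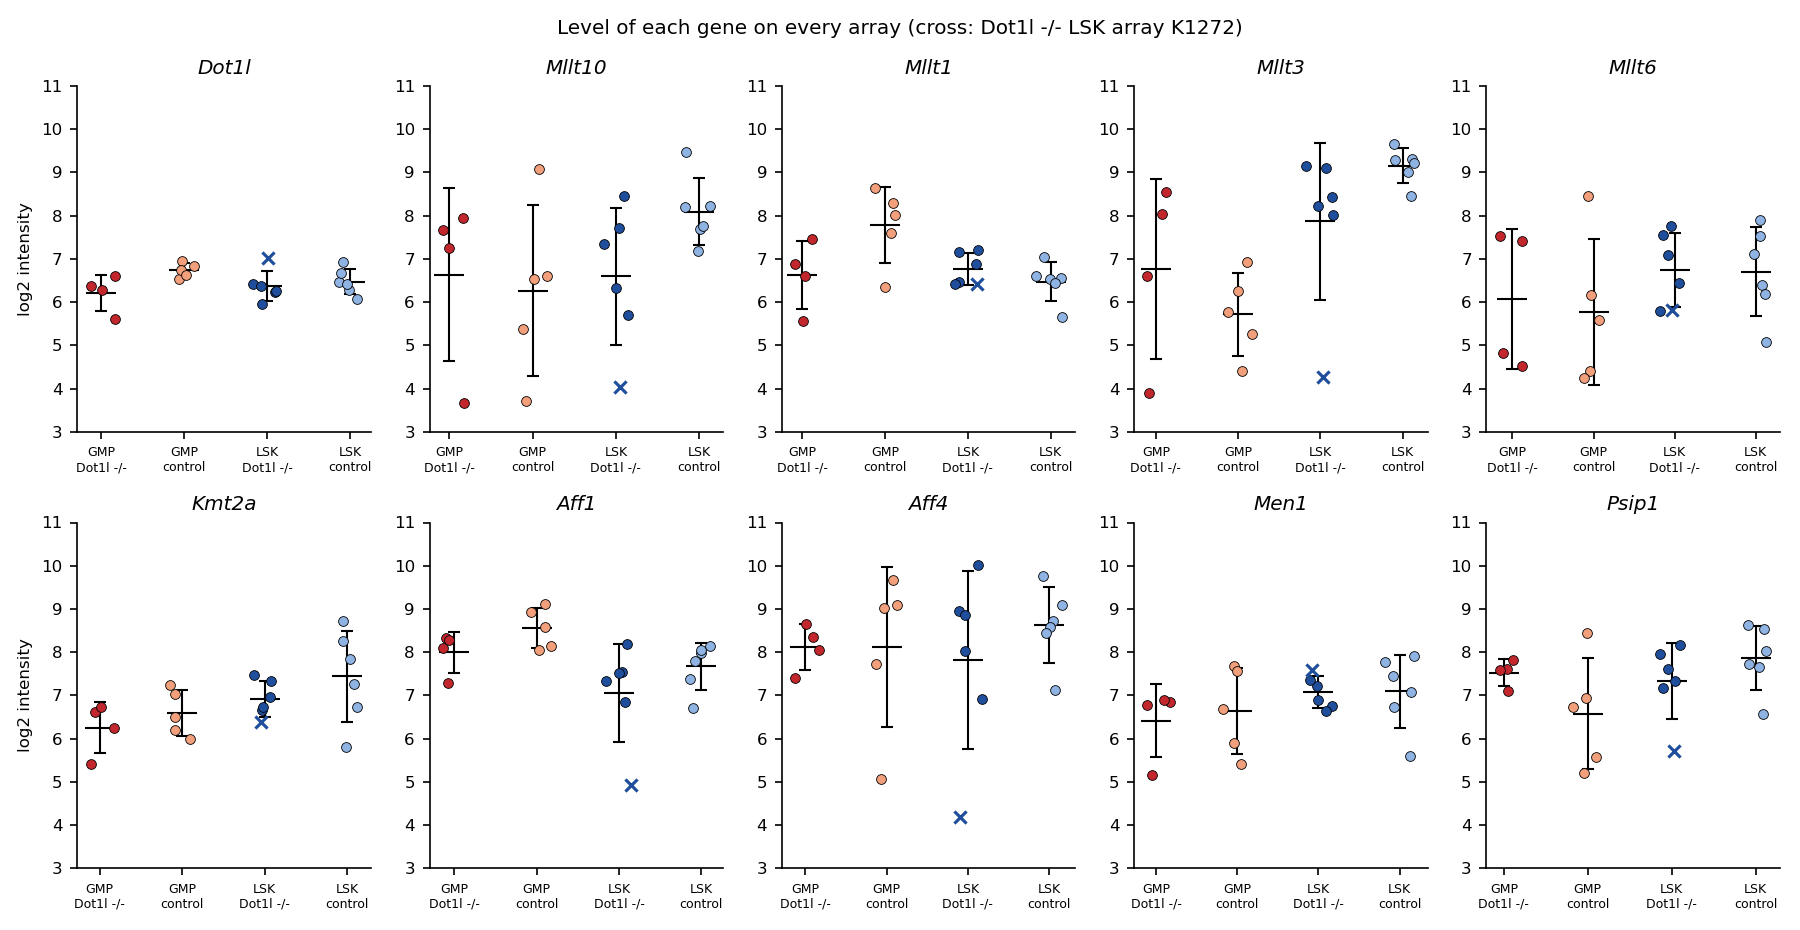
Log2 intensity (vertical axis) of each of the 10 genes on every array, in deleted GMP, control GMP, deleted LSK and control LSK; points are arrays, bars the mean and SD, and the cross is the array labelled LSK-Dot K1272. Mllt3 in control GMP (4.40 to 6.93) lies wholly below control LSK (8.45 to 9.65), while the genotypes overlap for every gene.

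Dot1l, the deleted gene, was measured first. In deleted GMP its 4 arrays had 6.29, 5.62, 6.36 and 6.60, and in control GMP the 5 arrays had 6.55, 6.95, 6.83, 6.73 and 6.63. In LSK the lowest, median and highest values were 5.95, 6.32 and 7.01 in deleted cells and 6.08, 6.44 and 6.93 in control cells. Thus 3 of the 4 deleted GMP arrays lay below all control GMP arrays and the fourth lay among them, whereas in LSK the genotypes overlapped over most of their range. The highest deleted LSK value, 7.01, was that of K1272.

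The difference of Dot1l between deleted and control GMP was -0.52 ± 0.24 log2 (SE; 95% interval -1.02 to -0.02; adjusted p = 0.340), or -0.32 relative to the median of all genes. In LSK it was -0.10 ± 0.20 (interval -0.53 to 0.32; adjusted p = 0.985), and -0.23 (interval -0.61 to 0.15) without K1272. The effect in GMP minus that in LSK was -0.42, with an interval of -1.07 to 0.24. Without K1272 it was -0.29 (interval -0.86 to 0.28). Without that array, limma gave the difference in GMP an adjusted p of 0.138, through the spread alone. The second Dot1l probe set, 1439488_at, gave -0.54 ± 0.48 in GMP. Its deleted GMP arrays had 5.23, 5.27, 7.22 and 4.65, so 1 of them stood above every control GMP array, the highest of which had 6.96. The labels and annotation used here do not place these probe sets relative to the deleted exons, so the Dot1l values do not check the genotype labels. By group mean the order was control GMP (6.74 ± 0.16, SD), control LSK (6.48 ± 0.30), deleted LSK (6.37 ± 0.35) and deleted GMP (6.22 ± 0.42), and no neighbours in that order differed by more than their SD added together.

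Mllt3 encodes AF9, a YEATS-domain reader that brings DOT1L to acetylated chromatin. Its values on the deleted GMP arrays were 8.03, 8.55, 3.89 and 6.61, and on the control GMP arrays 4.40, 6.93, 5.25, 5.78 and 6.25. Deleted LSK arrays ran from 4.27 over a median of 8.32 to 9.15, and control LSK arrays from 8.45 over 9.26 to 9.65. Control GMP and control LSK did not overlap, which was so for 1 of the 10 genes (14.7% of all genes). The deleted GMP arrays ran from below the control GMP range to the lower end of the control LSK range.

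Mllt3 was 10.8-fold lower in control GMP than in control LSK, a difference of -3.44 ± 0.80 log2 (interval -5.10 to -1.77; adjusted p = 0.0102). Relative to the median of all genes it was -3.72. The call was lost with the arrays' upper quartiles in the model, where the difference was -1.20 (adjusted p = 0.195). It was also lost with the shared replicate numbers as a block, where 2.5% of all genes were called. In deleted GMP against deleted LSK the difference was -1.09 ± 0.85 (interval -2.87 to 0.68; adjusted p = 0.980), and -1.81 (interval -3.23 to -0.39; adjusted p = 0.317) without K1272, where Mllt3 stood at 4.27. Deleted GMP averaged 6.77 ± 2.09 and control GMP 5.72 ± 0.96 (SD), a difference of 1.05 with an interval of -0.80 to 2.90. In LSK the deleted minus control difference was -1.29 (interval -2.88 to 0.30), and -0.57 (interval -1.85 to 0.71) without K1272. The effect in GMP minus that in LSK was 2.34 (interval -0.095 to 4.78; adjusted p = 0.377). Without K1272 it was 1.62 (interval -0.29 to 3.53). The GMP difference depended on the setting: it was -0.11 with the arrays' upper quartiles in the model (adjusted p = 0.965). With array quality weights it was 2.03 (adjusted p = 0.00362), a setting in which 39.3% of all genes were called, against 0.143% in the main fit.

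Mllt1 encodes ENL, the close relative of AF9, which takes the same place in DOT1L and super elongation complexes. Deleted GMP arrays had 6.60, 6.89, 7.45 and 5.57, and control GMP arrays 6.35, 8.29, 8.64, 8.02 and 7.60. Deleted LSK ran from 6.41 over a median of 6.67 to 7.21, and control LSK from 5.66 over 6.54 to 7.06. Of the control GMP arrays, 4 lay above every array of the other groups, and the remaining one, K1601, lay within their range.

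Mllt1 was 2.47-fold higher in control GMP than in control LSK, by 1.31 ± 0.37 log2 (interval 0.53 to 2.08; adjusted p = 0.0291), or 1.02 relative to the median of all genes. In deleted GMP against deleted LSK the difference was -0.13 ± 0.40 (interval -0.96 to 0.70). Deleted minus control GMP was -1.15 ± 0.41 (interval -2.01 to -0.29; adjusted p = 0.248), and in LSK 0.29 ± 0.35 (interval -0.45 to 1.02). The effect in GMP minus that in LSK was -1.44 (interval -2.57 to -0.30; adjusted p = 0.307). Without K1272 it was -1.50 (interval -2.67 to -0.34). Without that array, limma gave the difference in GMP an adjusted p of 0.115, through the spread alone. The control difference missed the threshold when control GMP array K1602, K1603 or K1604 or control LSK array K1601 or K1602 was left out, with adjusted p-values of 0.0556, 0.0881, 0.0611, 0.0549 and 0.0548 in that order. It also missed the threshold with the shared replicate numbers as a block.

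**Figure D2:**
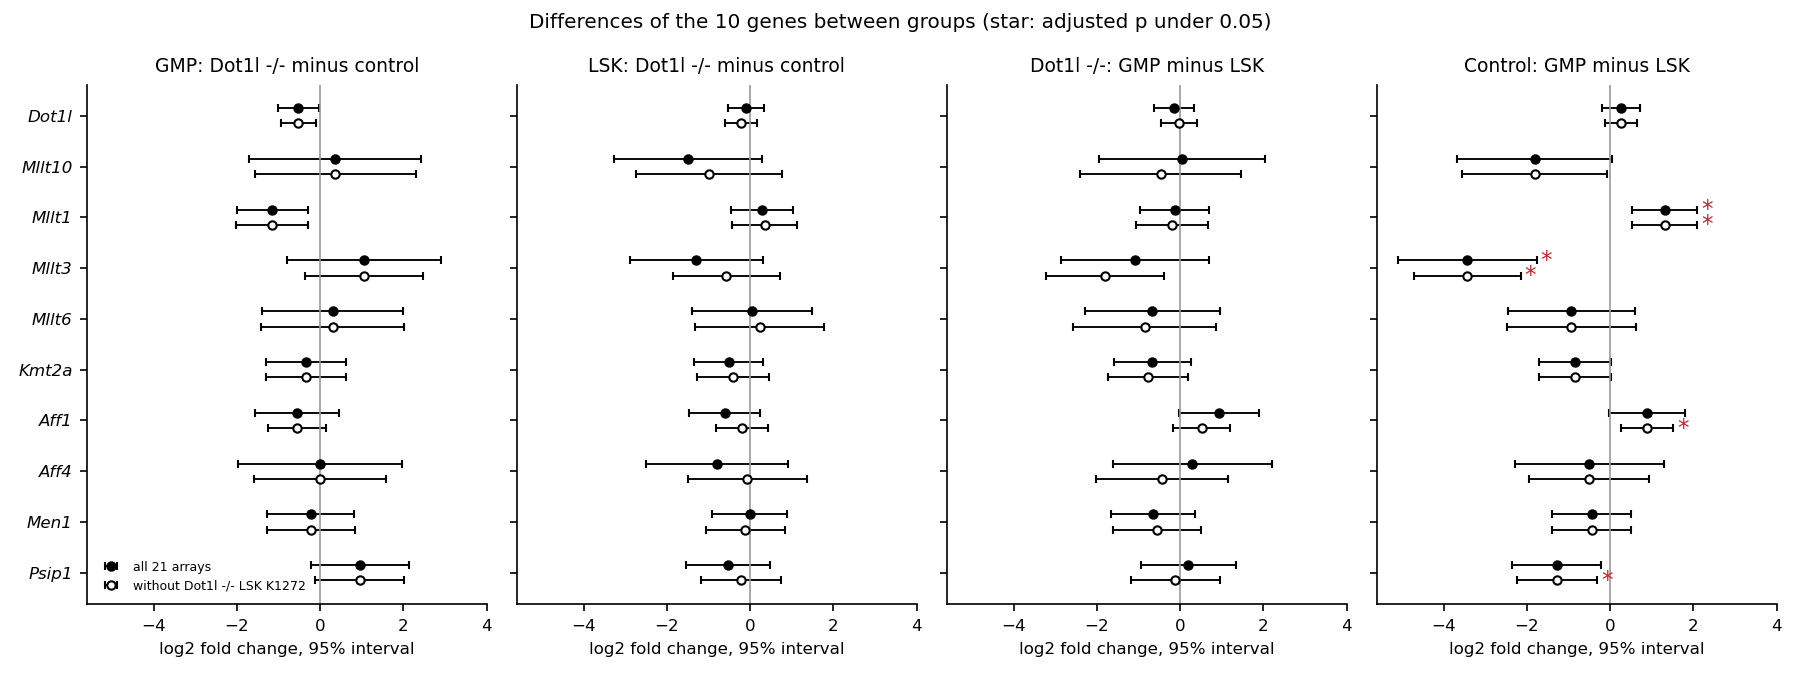
Log2 fold changes with 95% intervals (horizontal axis) of the 10 genes in 4 comparisons, filled with all 21 arrays and open without the array labelled LSK-Dot K1272; a star marks an adjusted p under 0.05. Stars stand only in control GMP minus control LSK, at Mllt1 and Mllt3 with all arrays and also at Aff1 and Psip1 without K1272.

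Sequences at the start of transcription are shown for Mllt3 and Mllt1, the genes that passed the test with all arrays. They are the 250 bases before a listed start of each gene in GRCm38.p6, on the minus strand, 5′ to 3′. Capitals mark every match of the motifs searched. The Mllt3 window is chr4:88033408-88033657 and the Mllt1 window chr17:56935389-56935638. The annotated gene reaches up to position 88033407 for Mllt3, just outside its window, and up to 56935509 for Mllt1. Part of the Mllt1 window thus lies inside the annotated gene.
Mllt3: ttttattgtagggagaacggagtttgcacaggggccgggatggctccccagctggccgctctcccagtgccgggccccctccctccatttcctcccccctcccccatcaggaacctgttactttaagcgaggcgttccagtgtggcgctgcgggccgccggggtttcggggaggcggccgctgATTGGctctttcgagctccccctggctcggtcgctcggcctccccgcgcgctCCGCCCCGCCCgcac
Mllt1: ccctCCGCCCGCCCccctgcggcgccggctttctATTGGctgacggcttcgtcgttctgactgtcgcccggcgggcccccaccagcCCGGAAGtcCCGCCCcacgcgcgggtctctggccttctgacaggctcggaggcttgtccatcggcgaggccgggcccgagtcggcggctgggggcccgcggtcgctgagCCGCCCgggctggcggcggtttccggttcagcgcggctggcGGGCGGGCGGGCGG

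The motifs searched were the GC box, spelled GGGCGG, and the CCAAT box by its own letters. The TATA box was spelled TATAAA, and the ETS-type site was spelled CCGGAAG. The E-box was searched as CACGTG, and the RUNX-type site was searched as TGTGGT. Matches on both strands counted, also where they overlapped. The Mllt3 window held 2 GC boxes and 1 CCAAT, with 69.2% G and C and 23 CpG. The Mllt1 window held 7 GC boxes, 1 CCAAT and 1 ETS-type site, with 77.6% G and C and 37 CpG. Mllt3 has a second annotated start, whose window had 45.2% G and C and no GC box.

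Windows were found for 9 of the 10 genes, 15 in all, and Psip1 was not matched. Their median G and C content was 69.2%, against 55.6% over 21230 windows of protein-coding genes. A GC box was in 11 of the 15 windows, of 8 genes, against 42.6% of all windows, and CCAAT in 7 of 15, against 35.4%. The TATA box was in 0 of 15, against 11.6%, the ETS-type site in 2 (Dot1l and Mllt1), against 9%, the E-box in 1 (Aff4), against 6.63%, and the RUNX-type site in 1 (Mllt10), against 12.4%. Such matches describe letters in these windows, and several windows of 1 gene overlap. Some windows, such as those of Dot1l and Mllt1, reach into the annotated gene.

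Mllt10 (AF10) and Mllt6 (AF17) encode the partners that DOT1L needs to add further methyl groups at lysine 79. Mllt10 had 7.67, 7.25, 3.66 and 7.96 in deleted GMP and 9.09, 6.54, 3.71, 5.39 and 6.62 in control GMP. Deleted LSK ran from 4.04 over a median of 6.83 to 8.45, and control LSK from 7.18 over 7.99 to 9.46. The GMP arrays therefore spanned a wide range in both genotypes, and control LSK was the tightest group.

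Mllt10 differed by -1.82 ± 0.90 between control GMP and control LSK (interval -3.69 to 0.05; adjusted p = 0.156), by 0.37 between deleted and control GMP (interval -1.70 to 2.43) and by -1.49 between deleted and control LSK (interval -3.27 to 0.29; -0.98 without K1272). Mllt6 had 7.41, 7.54, 4.52 and 4.81 in deleted GMP and 4.42, 8.45, 5.58, 4.25 and 6.17 in control GMP, with medians of 6.76 in deleted LSK and 6.76 in control LSK. Its difference was -0.93 between control GMP and control LSK (interval -2.45 to 0.59), 0.30 between deleted and control GMP (interval -1.39 to 1.99) and 0.04 between deleted and control LSK (interval -1.41 to 1.49). The spread of Mllt6 within GMP was larger than any of its group differences.

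Kmt2a encodes MLL1, the methyltransferase of histone H3 lysine 4 that leukaemic fusions disrupt. It had 6.61, 6.73, 5.42 and 6.24 in deleted GMP and 6.50, 6.21, 7.23, 7.02 and 5.99 in control GMP. Deleted LSK ran from 6.39 over a median of 6.85 to 7.46, and control LSK from 5.82 over 7.55 to 8.73. Its difference was -0.85 ± 0.42 between control GMP and control LSK (interval -1.72 to 0.02; adjusted p = 0.155), -0.34 between deleted and control GMP (interval -1.30 to 0.62) and -0.52 between deleted and control LSK (interval -1.34 to 0.31). Without K1272 the difference in LSK was -0.41 (interval -1.28 to 0.46).

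Men1 encodes menin, which binds the amino-terminal end of MLL1, and Psip1 encodes LEDGF, which joins menin and MLL1 to nucleosomes of transcribed genes. Men1 had 6.78, 6.84, 6.90 and 5.15 in deleted GMP and 5.41, 7.67, 5.90, 7.56 and 6.69 in control GMP, with medians of 7.06 in deleted LSK and 7.27 in control LSK. Psip1 had 7.61, 7.81, 7.09 and 7.59 in deleted GMP and 5.57, 6.74, 6.93, 5.20 and 8.45 in control GMP, with medians of 7.47 in deleted LSK and 7.89 in control LSK. For Psip1, the 4 deleted GMP arrays lay close together, above 4 of the 5 control GMP arrays and below the other one.

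Psip1 differed by 0.95 ± 0.57 between deleted and control GMP (interval -0.23 to 2.13; adjusted p = 0.429) and by -0.53 between deleted and control LSK (interval -1.55 to 0.48; -0.21 without K1272). Between control GMP and control LSK it differed by -1.29 ± 0.51 (interval -2.35 to -0.22; adjusted p = 0.0940), and the same difference was called without K1272 (adjusted p = 0.0425) or without control GMP array K1581 (-1.75, adjusted p = 0.0254). Men1 differed by -0.23 between deleted and control GMP (interval -1.28 to 0.82), by -0.01 between deleted and control LSK (interval -0.91 to 0.89) and by -0.45 between control GMP and control LSK (interval -1.39 to 0.50).

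Aff1 (AF4) and Aff4 encode scaffolds of the super elongation complex, which carries the kinase that frees paused RNA polymerase. Aff1 had 8.10, 8.32, 7.30 and 8.28 in deleted GMP and 8.93, 8.04, 8.13, 8.58 and 9.11 in control GMP. Deleted LSK ran from 4.92 over a median of 7.42 to 8.19, and control LSK from 6.70 over 7.88 to 8.14. Of the 9 GMP arrays, 5 lay above the highest LSK array.

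Aff1 differed by 0.88 ± 0.43 between control GMP and control LSK (interval -0.02 to 1.79; adjusted p = 0.156), and this difference was called without K1272 (adjusted p = 0.0328). Deleted minus control was -0.56 in GMP (interval -1.56 to 0.44) and -0.62 in LSK (interval -1.48 to 0.25; -0.19 without K1272). Aff4 had 8.36, 8.65, 7.41 and 8.05 in deleted GMP and 9.02, 5.07, 9.10, 7.73 and 9.67 in control GMP, with medians of 8.45 in deleted LSK and 8.65 in control LSK. Its difference was -0.002 between deleted and control GMP (interval -1.98 to 1.98), -0.80 between deleted and control LSK (interval -2.50 to 0.91; -0.07 without K1272) and -0.50 between control GMP and control LSK (interval -2.29 to 1.28).

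Across the 10 genes, the deleted minus control difference in GMP was above 0 for 4 and below 0 for 6, with a median of -0.12 beside -0.20 for all genes. In LSK it was above 0 for 2 (Mllt1 and Mllt6) and below 0 for 8, with a median of -0.52 beside 0.06 for all genes, and a median of -0.20 beside -0.03 without K1272. Between control GMP and control LSK, 3 were above 0 (Dot1l, Mllt1 and Aff1) and 7 below, with a median of -0.68 beside 0.29. In deleted GMP against deleted LSK, 4 were above 0 and 6 below, with a median of -0.14 beside 0.01. Without K1272, that became 1 above and 9 below, with a median of -0.45 beside 0.10. For deleted against control GMP, the groups overlapped for all 10 genes, where 4.78% of all genes did not overlap.

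The deleted GMP arrays differed among themselves. K1359 was the lowest of the 4 for 7 of the 10 genes. K1190 and K1272 of this group lay close to each other, with a median gap of 0.25 over the 10 genes, against 0.90 between K1359 and K1421, and both stood above the other pair for 5 genes and below it for 1. When K1190 and K1272 were averaged as 1 sample, 0 of the 10 genes were called in deleted against control GMP, against 0.0495% of all genes.

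The other probe sets of the 10 genes were set beside the brightest in a fit over all 45037 probe sets that are no array controls. In control GMP against control LSK, 6 of the 28 were called, against 9.59% of all probe sets, and 10 were called without K1272, against 25% of all. Both Mllt1 probe sets were called higher, the second, 1421060_at, by 1.79 ± 0.52 (adjusted p = 0.0380). A second Mllt3 probe set, 1431890_a_at, was called lower by -2.79 ± 0.60 (adjusted p = 0.00775), and the third, 1429205_at, had -1.20 ± 0.45 (adjusted p = 0.0862). With probe sets named _s_at, _x_at and _a_at left out, 1429205_at alone stands for Mllt3, which then missed the threshold over genes (adjusted p = 0.0800). This probe set was dim, with group means from 3.24 in control GMP to 4.44 in control LSK, below the median of every array.

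The other 2 calls were on probe sets of genes whose brightest probe set was not called. Mllt10 probe set 1420869_at had 5.56, 6.46, 4.87, 6.07 and 6.08 in control GMP, against 6.58 to 8.19 in control LSK, a difference of -1.75 ± 0.42 (adjusted p = 0.0151). Kmt2a probe set 1452377_at had 5.10, 4.40, 4.25, 4.52 and 4.66 in control GMP, against 5.78 to 7.43 in control LSK, a difference of -1.86 ± 0.45 (adjusted p = 0.0162). Neither pair of groups overlapped, in a comparison where 14.7% of all genes did not overlap. In control GMP the Kmt2a probe set stood near the level of the middle probe set of an array.

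All 4 Mllt10, 3 Mllt3, 3 Psip1 and 2 Kmt2a probe sets had differences below 0. The 3 Aff1 probe sets disagreed, with 0.88 for the brightest and -0.42 and -0.55 for the others, and so did those of Men1, at -0.45, -0.02 and 0.82. Dot1l (0.26 and -0.06), Mllt6 (-0.93, 0.19 and 0.04) and Aff4 (-0.50, 0.003 and 0.09) also had probe sets of opposite sign. Of the 18 probe sets other than the brightest, 10 had the sign of the brightest of their gene.

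In deleted against control GMP, 0 of the 28 probe sets were called, against 0.0755% of all, and 6 had an unadjusted p under 0.05, against 13.4% of all. The smallest adjusted p was that of Psip1 1442148_at. It had 6.75, 6.49, 8.24 and 6.35 in deleted GMP and 4.86, 6.14, 4.57, 5.03 and 4.89 in control GMP, so these groups did not overlap, with a difference of 1.86 ± 0.56 (adjusted p = 0.195). Of all genes, 4.78% did not overlap in this comparison. The brightest Psip1 probe set had 0.95, and the third, 1460403_at, went the other way at -0.17. Both Mllt1 probe sets were below 0, at -1.15 and -1.50, and both Dot1l probe sets, at -0.52 and -0.54. The 3 Aff1 probe sets again differed in sign, with -0.56 for the brightest and 0.67 (1425640_at) and 1.11 (1425641_at) for the others, which were among the 6. In deleted against control LSK, 0 of the 28 were called, and 2 had an unadjusted p under 0.05, against 5.32% of all. These were Mllt1 1421060_at (1.12) and Mllt3 1431890_a_at (-1.21).

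**Figure D3:**
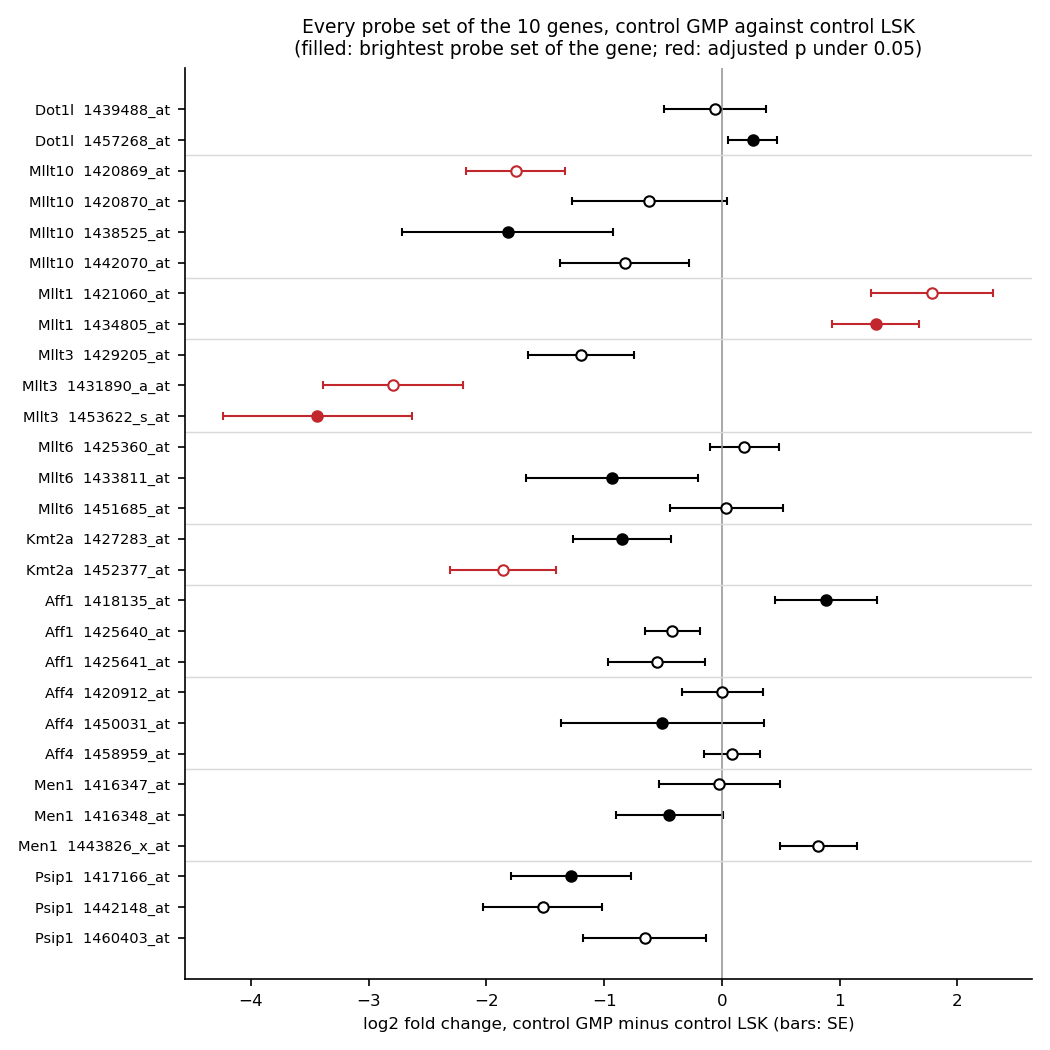
Log2 fold change of control GMP minus control LSK with its SE (horizontal axis) for the 28 probe sets, grouped by gene; filled points are the brightest probe set of a gene and red marks an adjusted p under 0.05. Red points are both Mllt1 probe sets (1.31 and 1.79), 2 of Mllt3 (-3.44 and -2.79), 1 of Mllt10 (-1.75) and 1 of Kmt2a (-1.86).

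The spread of values on an array moved with the cell type in the controls. The upper quartile of an array was 6.19 to 6.57 in control GMP and 6.60 to 6.76 in control LSK, without overlap, and 6.27 to 6.77 in deleted GMP and 6.18 to 6.78 in deleted LSK. Within deleted GMP, the arrays with upper quartiles of 6.71 and 6.77 had Mllt3 at 8.03 and 8.55, and those with 6.27 and 6.31 had 3.89 and 6.61. The array labelled LSK-Dot K1272 had an upper quartile of 6.18 and Mllt3 at 4.27. With the upper quartile as a covariate, the control GMP minus control LSK difference was 1.60 for Mllt1 (adjusted p = 0.0572), and 0 of the 10 genes were called. Among the controls, array spread and cell type cannot be told apart.

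Markers of other cells were also compared between control GMP and control LSK. The mean over 5 stroma and endothelium markers was 4.86 to 5.46 in control GMP and 4.27 to 4.59 in control LSK, and that over 3 erythroid markers was 4.11 to 5.28 in control GMP and 4.94 to 6.02 in control LSK. The mean over 6 late neutrophil genes was 8.78 to 9.08 in control GMP and 8.14 to 12.43 in control LSK, and 7.46 to 8.62 in deleted GMP. The erythroid and late neutrophil means overlapped between the controls, as did those of B cell, T cell and macrophage markers. The stroma and endothelium means did not, where the middle probe set of an array lay between 4.65 and 4.98. Between deleted and control GMP, the late neutrophil means and the B cell means (4.38 to 4.81 and 4.91 to 5.81) did not overlap, while the other lists of other cells did. The late neutrophil mean was 6.46 to 8.67 in deleted LSK, which overlapped control LSK. All genes were shifted by a median of 0.29 between the controls. The log2 difference of the 3′ and 5′ Gapdh control probe sets, a sign of RNA quality, was 2.24 to 3.17 in control GMP and 2.51 to 3.65 in control LSK. The part of these in the Mllt3 and Mllt1 differences was not tested.

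**Figure D4:**
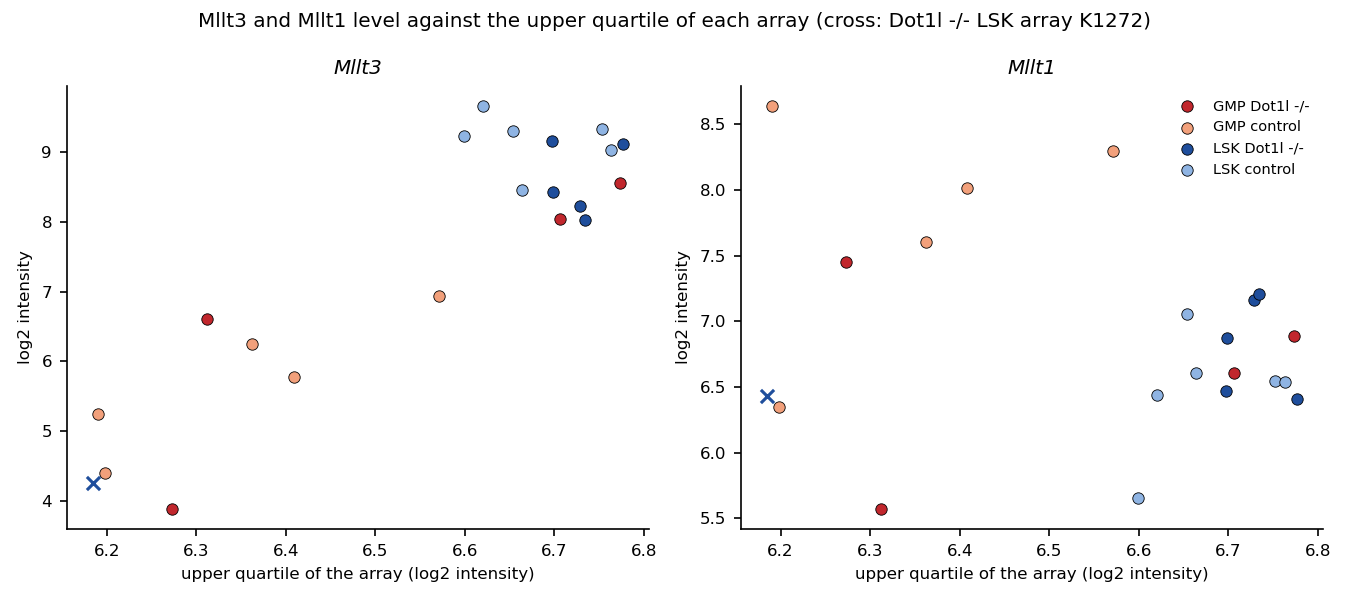
Log2 intensity of Mllt3 (left) and Mllt1 (right) against the upper quartile of all values on the same array (both log2), one point per array and coloured by group; the cross is the array labelled LSK-Dot K1272. The 5 control GMP arrays have upper quartiles up to 6.57 and Mllt3 up to 6.93, and 4 of them hold the highest Mllt1 values.

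Further lists show the machinery around these genes. Of further genes of super elongation and P-TEFb complexes, 10 were measured by a probe set of their own. In control GMP against control LSK, 2 of the 10 were called lower, against 4.95% of all genes, with a list median of -0.61 beside 0.29 for all genes. Aff3, another AFF-family scaffold, lay between 6.62 and 8.35 in control GMP and between 8.99 and 10.71 in control LSK, a difference of -2.28 ± 0.56 (adjusted p = 0.0142). Ccnt1, the cyclin T1 subunit of P-TEFb, lay between 4.56 and 6.10 in control GMP and between 7.12 and 8.40 in control LSK, a difference of -2.55 ± 0.68 (adjusted p = 0.0216). Without K1272, 4 of the 10 were called lower, with Ell2 (-1.61) and Hexim1 (-0.81) added, against 9.03% of all genes.

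Of the elongation list, 0 of 10 were called in deleted against control GMP, with 2 at an unadjusted p under 0.05, where 13.9% of all genes had one. These were Hexim1, which encodes an inhibitor of P-TEFb, at 0.68 (interval 0.05 to 1.32), and Ccnt1 at 1.62 (interval 0.06 to 3.19). In deleted against control LSK 0 of 10 were called and 0 had an unadjusted p under 0.05, the smallest p being those of Aff3 (-0.69) and Aff2 (-0.30). For the difference of effects 0 were called, with Ccnt1 at 2.09 and Ell at -0.95. In deleted GMP against deleted LSK 0 were called, with Aff2 at 0.76 and Aff3 at -0.996.

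The second list held 10 genes of the MLL core and its cofactors, all measured, of which 0 were called in any of the 5 comparisons with all arrays. In deleted against control GMP, 3 had an unadjusted p under 0.05, against 13.9% of all genes, and the list median was 0.68 beside -0.20 for all genes. Hcfc2, a host cell factor found in MLL complexes, lay between 6.12 and 9.69 in deleted GMP and between 4.62 and 6.08 in control GMP, a difference of 2.63 ± 0.61 (adjusted p = 0.0949), which was called without K1272 (adjusted p = 0.0333). Tasp1, the protease that cleaves MLL1, lay between 6.34 and 7.05 in deleted GMP and between 3.73 and 6.18 in control GMP, a difference of 1.39 ± 0.49 (adjusted p = 0.246). Hcfc2 was at 0.72 in deleted against control LSK (interval -0.39 to 1.82), and the effect in GMP minus that in LSK was 1.91 (interval 0.23 to 3.60; adjusted p = 0.337).

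The third, Kmt2b, the closest relative of MLL1, lay between 4.16 and 5.81 in deleted GMP and between 4.42 and 8.81 in control GMP, a difference of -1.72 ± 0.64 (adjusted p = 0.264). Kmt2b had -0.61 in deleted against control LSK and -1.51 in deleted GMP against deleted LSK, where Hcfc2 had 1.87. Between control GMP and control LSK the smallest p were those of Rbbp5 (-1.04) and Hcfc1 (-0.75). For the difference of effects Tasp1 had 1.17. None of these passed the test.

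The genes whose pattern over the 21 arrays was most like that of Dot1l were Igf2os, Eps8l2, Tmem239, Iyd and Wnk4. Likeness was the root mean square difference of log2 values, each centred on its own mean, among the 3131 genes whose SD was within 20% of that of Dot1l. It was 0.213 to 0.231 for these 5, against a median of 0.361. Their mean log2 intensities, 3.45 to 4.54, were below the median of every array.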

How the data were processed

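The authors deposited 1 table of intensities on a linear scale for 45101 probe sets on 21 arrays, made with RMA per the submitters' processing notes. The RMA version, genome build and batches are not named there. That the scale is linear follows from array medians between 25.2 and 31.5. Here the log2 was taken with no pseudocount. In the platform annotation, 34958 probe sets had 1 gene symbol, 932 had several and 9211 had none, and 64 array control sets were left out of the tests.

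Differences were tested with limma (version 3.58.1, R 4.3.3). Its model held 4 group means over 21 arrays, and p-values were adjusted by Benjamini-Hochberg over 18193 genes, or 45037 probe sets for the fit by probe set, with a threshold of 0.05. It was tested on simulated data. The precision is limited by 4 to 6 arrays a group, and intervals are 95% confidence intervals. All 10 genes, and from the elongation and MLL core lists those called or with the 2 smallest p, are named. The genes and lists were chosen with earlier results of these data known.

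The cell types share replicate numbers, and the labels do not say whether a number marks 1 animal. Over 9 shared numbers, correlations of deviations ran from -0.397 to 0.272, with 1 over 0.1. So few numbers cannot show whether the arrays are paired, and the main model leaves the numbers out. Alternatives were another normalization, centring, the upper quartile as covariate, leaving out dim genes, the mean of a gene's probe sets, probe sets without _s_at, _x_at and _a_at, other variances, array weights (gene by gene), fewer groups, single arrays left out, the replicate block and a fold limit of 2.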

Additional observations from a re-analysis of the deposited data

Results flagged for a closer look

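Single arrays far from the rest of their group were looked for in 112 groups of values, 4 for each of the 28 probe sets, and 6 were found. Chance alone marks about 1 group in 20 by this measure, Dixon's ratio of the gap to the range. On the array labelled LSK-Dot K1272, Mllt3 stood lowest at 4.27, with the nearest of the group at 8.02, and Men1 probe set 1443826_x_at stood highest at 7.37, with the nearest at 5.72. In deleted GMP, Mllt10 was lowest on K1359 at 3.66, with the nearest at 7.25, and Men1 was lowest on K1421 at 5.15, with the nearest at 6.78. Mllt10 probe set 1442070_at was highest on K1190 of deleted GMP at 6.82 (nearest 5.39) and on K1359 of deleted LSK at 8.10 (nearest 5.70). The difference of the genotype effects between GMP and LSK was called for 0 of the 10 genes by limma, with 1 at an unadjusted p under 0.05. Over their 28 probe sets, 0 were called, and 9 had an unadjusted p under 0.05, against 12.5% of all probe sets. The smallest adjusted p, 0.243, was that of Mllt1 probe set 1421060_at (-2.62).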

How the results depend on the processing

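In control GMP against control LSK, Mllt3 was called in 29 of 32 settings and Mllt1 in 25. Of these settings, 21 left out 1 array, and Mllt3 was called in 21 of them and Mllt1 in 16. Leaving out a deleted array kept the difference unchanged and acted only through the spread. Each loss of the Mllt1 call among them came from leaving out a control array. The count of called genes, 2 of 10, became 0 with the upper quartile as a covariate, against 3.26% of all genes. It became 4 with the mean of a gene's probe sets (Kmt2a and Psip1 added), against 13.4% of all genes. Without _s_at, _x_at and _a_at probe sets it was 1 (Mllt1), against 11.6% of all genes, and Mllt3 then rests on 1429205_at (-1.20, adjusted p = 0.0800). Leaving out single arrays gave 1 to 4, with 4 without the array labelled LSK-Dot K1272, where the share of all genes ran from 6.11% to 30.4%. With array quality weights, 3 of the 10 genes (Dot1l, Mllt1 and Mllt3) were called in deleted against control GMP. There 7151 of all genes (39.3%) were called in place of 26. For the difference of effects 2 (Mllt1 and Mllt3) were called with weights, where 23.3% of all genes were called. Over all genes, 2182 were called in control GMP against control LSK, 593 with the covariate, 6350 with weights and 5531 without K1272. In deleted against control LSK, 0 of 10 were called in every setting run. The number of arrays limits the precision, and the causes of these shifts were not tested.

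The K numbers shared by the cell types could be fitted as a replicate block only between cell types. With the replicate block 0 of 10 genes, and 454 of all genes (2.5%), were called in control GMP against control LSK. Mllt3 was then at -3.34 (adjusted p = 0.121) and Mllt1 at 1.30 (adjusted p = 0.144). Men1 then had 0.10 for the difference of effects, and in deleted GMP against deleted LSK Mllt10 had -0.25 and Mllt1 0.010.

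The signs that turned were of differences not called in the report's own setting, though Mllt3 in deleted against control GMP was called with weights, and Aff1 in control GMP against control LSK with weights and without K1272. For deleted against control LSK, they were 0.018 (Dot1l) and 0.076 (Men1) with quantile normalization, 0.032 (Men1) with the covariate, and -0.13 (Mllt6), 0.25 (Men1) and 0.030 (Psip1) with the mean of probe sets. For deleted against control GMP, they were -0.26 (Mllt10), -0.11 (Mllt3) and -0.43 (Mllt6) with the covariate, -0.12 (Mllt6) and 0.41 (Aff1) with the mean of probe sets, -0.17 (Mllt6) with K1190 and K1272 averaged, 0.17 (Kmt2a) and 0.30 (Aff4) with weights, and 0.055 (Aff4) with centred arrays. For the difference of effects, they were -0.64 (Mllt6), -0.023 (Kmt2a) and -0.43 (Aff1) with the covariate, -0.21 (Mllt6) and -0.013 (Aff1) with K1190 and K1272 averaged, -0.078 (Kmt2a) with quantile normalization and -0.38 (Aff1) with weights.

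For control GMP against control LSK, they were -0.048 (Dot1l), 0.49 (Mllt6) and 0.29 (Aff4) with the covariate, and -0.030 (Aff1) and 0.12 (Men1) with the mean of probe sets. For deleted GMP against deleted LSK, they were -0.19 (Mllt10) and -0.30 (Psip1) with the mean of probe sets, -0.24 (Mllt10) with K1190 and K1272 averaged, 0.23 (Mllt3) without _s_at, _x_at and _a_at probe sets, and 0.58 (Mllt6), -0.055 (Aff4) and -0.045 (Psip1) with weights.

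Leaving out single arrays turned further signs. The ranges were, for deleted against control LSK, -0.28 to 0.28 (Mllt6) and -0.31 to 0.15 (Men1). For deleted against control GMP they were -0.27 to 1.36 (Mllt10), -0.19 to 0.97 (Mllt6), -0.76 to 0.39 (Aff4) and -0.54 to 0.19 (Men1). For the difference of effects they were -0.23 to 0.93 (Mllt6), -0.084 to 0.50 (Kmt2a), -0.37 to 0.29 (Aff1) and -0.53 to 0.20 (Men1). For control GMP against control LSK the range was -0.89 to 0.26 (Aff4). For deleted GMP against deleted LSK they were -0.28 to 0.043 (Dot1l), -0.47 to 1.03 (Mllt10), -0.40 to 0.22 (Mllt1), -0.44 to 0.73 (Aff4) and -0.12 to 0.37 (Psip1).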
